A study of Mus musculus with 8 samples.

Results

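The genes described here are the transcriptional activators of the circadian clock and the nuclear receptors that act on them, namely Arntl, Npas2, Clock, Nr1d1, Nr1d2 and Rora. These 6 genes were chosen by name from the 52636 gene identifiers of the count tables. They were chosen with their difference between the arms of the study, the COPD model and control mice, already known. Their values and calls in this comparison are therefore a description only, printed without a p-value. The choice did not use the comparisons between diets, which were tested. All 6 genes passed the filter on low counts, as did 20546 genes in total.

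RNA of lung tissue from male wild type C57BL/6 mice was sequenced, with 2 libraries for each of 4 groups. At 10 weeks of age, mice of the COPD model were given porcine pancreatic elastase (PPE), which destroys alveolar walls, and from 12 weeks they were given 3 doses of lipopolysaccharide (LPS), a bacterial inflammatory agent, whereas control mice were given PBS each time. From 8 weeks of age, the mice of each arm were fed a control diet or the same diet with 2% TJ-41 (hochuekkito), a Japanese herbal medicine. The comparisons ask how the COPD model differs from control mice on each diet, how the diets differ in each arm, and whether the diet effect differs between the arms. Control mice therefore had PBS with the control diet or PBS with the TJ-41 diet, and the COPD model had PPE and LPS with either diet. The study has an acute phase at 14 weeks and a chronic phase at 17 weeks of age, and the phase that was sequenced, the hour of lung collection and the number of mice behind each library are not given in the sources used here. Mice were kept with lights on from 8 AM to 8 PM. Nothing in the labels states that the 2 libraries of a group came from separate mice, so that p-values measure only the spread between these libraries.

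The circadian clock is a feedback loop that runs in nearly every cell, including the epithelial and stromal cells of the lung. The protein of Arntl, also called BMAL1, pairs with the protein of Clock or of its relative Npas2, and the pair binds E-boxes and activates the Per and Cry repressor genes, the D-box factor Dbp, and Nr1d1 and Nr1d2. Nr1d1 and Nr1d2 encode REV-ERBα and REV-ERBβ, nuclear receptors that recruit NCoR and HDAC3 to ROR response elements and repress Arntl, Npas2 and Clock there, whereas RORα, the protein of Rora, activates from the same elements. In mouse tissues Arntl and Nr1d1 transcripts peak at nearly opposite hours of the day, and in the lung the clock of airway cells is known to shape the neutrophil response to LPS.

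The promoters of Arntl, Nr1d1 and Nr1d2 are shown because the loop closes on them, with REV-ERB and ROR acting on Arntl and the Arntl partners acting on both REV-ERB genes. RefSeq (GRCm38.p6) gave 9 promoter windows for the 6 genes, each of 300 bases, from 250 bases before to 50 bases after a transcription start. Each is written 5′ to 3′ along the gene's strand, with motif letters in capitals.
Arntl, second start, chr7:113207261-113207560, plus strand: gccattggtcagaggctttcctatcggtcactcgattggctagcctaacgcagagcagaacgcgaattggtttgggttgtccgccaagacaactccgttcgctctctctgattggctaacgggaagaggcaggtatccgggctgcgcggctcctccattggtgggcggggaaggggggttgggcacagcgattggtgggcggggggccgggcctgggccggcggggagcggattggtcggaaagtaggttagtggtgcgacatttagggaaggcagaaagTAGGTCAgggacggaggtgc
Nr1d1, chr11:98775328-98775627, minus strand: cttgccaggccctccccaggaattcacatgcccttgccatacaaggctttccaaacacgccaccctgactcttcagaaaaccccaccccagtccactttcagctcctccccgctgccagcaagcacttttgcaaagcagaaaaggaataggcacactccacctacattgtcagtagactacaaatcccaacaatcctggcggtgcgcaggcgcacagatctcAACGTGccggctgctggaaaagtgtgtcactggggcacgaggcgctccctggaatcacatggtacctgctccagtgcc
Nr1d2, chr14:18239057-18239356, minus strand: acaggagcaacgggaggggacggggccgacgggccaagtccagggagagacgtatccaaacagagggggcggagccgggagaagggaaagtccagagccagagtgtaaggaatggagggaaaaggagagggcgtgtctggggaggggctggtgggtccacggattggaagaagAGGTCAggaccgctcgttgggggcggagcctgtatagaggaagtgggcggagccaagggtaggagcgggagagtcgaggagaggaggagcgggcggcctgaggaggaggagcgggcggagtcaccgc

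Both strands were searched for the E-box CACGTG, the E-prime box CACGTT, the end of the ROR response element as TAGGTCA or TGGGTCA, the half-site AGGTCA, which the TAGGTCA form contains, and the D-box TTATGNAA. The capitals in the Arntl window are TAGGTCA, which begins 30 bases after the start. The end of the ROR response element was found in 6.45% of all 32851 RefSeq windows. In the Nr1d1 window the capitals are AACGTG, the E-prime box read on the other strand, which begins 28 bases before the start and was found in 4.68% of all windows. In the Nr1d2 window the capitals mark the half-site 77 bases before the start, a sequence of 16.3% of all windows. One of the 3 Clock windows held the half-site on the other strand, 119 bases before the start, and the windows of Npas2 and Rora and the first Arntl window held no match. The E-box and the D-box, found in 7.15% and 3.38% of all windows, were in none of the 9. A match is a description of these letters and not a binding site, and the windows leave out the distal elements of these genes.

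In the GRCm38 annotation, Npas2 (ENSMUSG00000026077) lies on chromosome 1 from 39193731 to 39363236 on the plus strand and Clock (ENSMUSG00000029238) on chromosome 5 from 76209868 to 76304792 on the minus strand. Arntl (ENSMUSG00000055116) lies on chromosome 7 from 113207465 to 113314126 and Rora (ENSMUSG00000032238) on chromosome 9 from 68653786 to 69388246, both on the plus strand. Nr1d1 (ENSMUSG00000020889) lies on chromosome 11 from 98767932 to 98775333 and Nr1d2 (ENSMUSG00000021775) on chromosome 14 from 18204054 to 18239127, both on the minus strand. All 6 are protein-coding. Nr1d1 shares 263 of its exon bases, or 8.55%, with the thyroid hormone receptor gene Thra on the opposite strand. Arntl shares 33 exon bases with the antisense gene Gm45355, and Rora shares 82 with the antisense gene Gm15511. The strand setting of the counting is not given in the sources used here, so reads from these shared bases cannot be told apart.

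The libraries held 18767295 to 20888042 counts. Levels are given as CPM, counts scaled to the library size with the TMM factors of edgeR, and a count of 0 would allow up to 3 counts, or 0.153 to 0.162 CPM, for counting error only. The replicates of the COPD model fed the control diet differed most from each other, with an SD over genes of 0.798 for their log2 difference and 0.394 to 0.469 elsewhere. Marker genes of alveolar, airway, endothelial and stromal lung cells were detected in every library. Among the other cell types, summed macrophage markers were 517 to 642 CPM in control mice and 819 to 1538 CPM in the COPD model, with 1 of 5 markers higher and 1 of 5 lower in every library of the model. The higher one, Chil3, made up most of the sum, with 371 to 476 CPM in control mice and 625 to 1387 CPM in the model. Summed B and plasma cell markers were 219 to 369 CPM and 420.2 to 1020 CPM, with 2 of 5 higher. Summed endothelial markers were 2859 to 3376 CPM in control mice and 2566 to 2833 CPM in the model, with 0 of 5 markers separated between the arms. The summed lists of the other 8 cell types overlapped between the arms. The part of these cell types in the results below was not tested. In RNA from lung tissue, fewer cells of a type and less RNA per cell cannot be told apart.

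The activator genes Arntl and Npas2 were 7.61-fold and 6.64-fold lower in the COPD model than in control mice, taking the means of 4 libraries in each arm. Clock was 1.87-fold lower. The REV-ERB genes were higher in the model, by 2.61-fold for Nr1d1 and 2.83-fold for Nr1d2, and Rora stood at 1.01-fold. No library of one arm overlapped the other arm for 5 of the 6 genes, 2 higher and 3 lower in the model. Of all genes tested, 3.35% were higher and 3.43% were lower in this way, and since the genes were chosen on this contrast nothing is read from the difference. The hour of lung collection is not given. A difference in hour between the arms was therefore not tested and cannot be told apart from the model. The same holds for the other clock genes below.

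**Figure D1:**
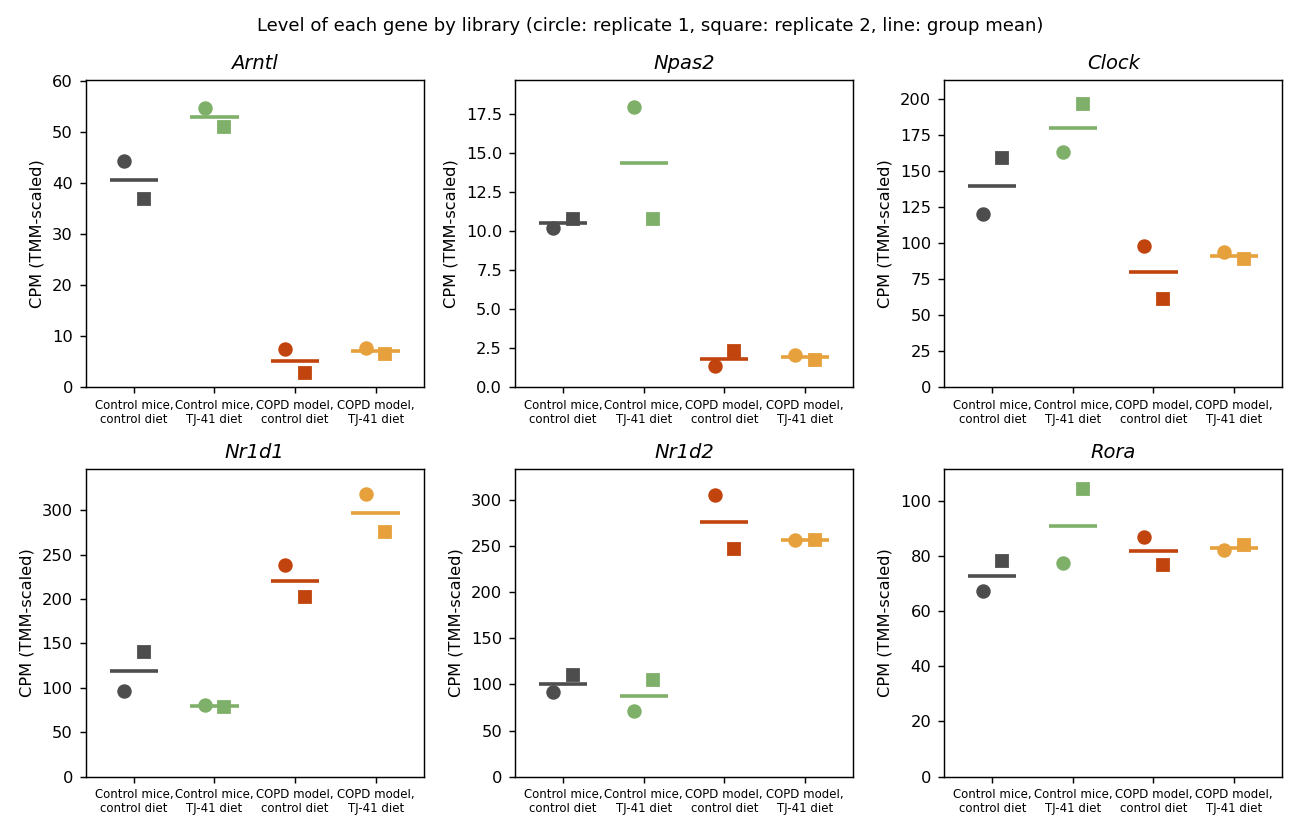
Level of each gene in CPM (vertical axes, linear from 0) in the 8 libraries, by group on the horizontal axes, with a circle for replicate 1, a square for replicate 2 and a line for the group mean. Arntl, Npas2 and Clock were lower in all 4 libraries of the COPD model, and Nr1d1 and Nr1d2 were higher in all 4. The Rora libraries of both arms overlapped, with 67.2 to 104 CPM in control mice and 76.8 to 87.0 CPM in the model.

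Arntl encodes BMAL1, the shared partner of the Clock and Npas2 proteins. In control mice it had 44.3 and 36.8 CPM on the control diet and 54.7 and 50.9 CPM on the TJ-41 diet. In the model it had 7.56 and 2.87 CPM on the control diet and 7.67 and 6.44 CPM on the TJ-41 diet. The highest library of the model was thus far under the lowest library of control mice, and replicate 2 of the model on the control diet stood apart as the lowest of all, with 56 counts. The 2 libraries of that group also differed most from each other over all genes, with an SD of 0.798 for their log2 difference. The log2 fold change (log2FC) of Arntl between the arms, with its standard error (SE), was -2.96 (SE 0.37) on the control diet and -2.90 (0.37) on the TJ-41 diet. On the control diet it was -3.82 without replicate 1 of the model and -2.42 without replicate 2.

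Npas2, which can take the place of Clock as partner of Arntl, had the lowest median of the 6 genes per kilobase of exon in both arms. It had 10.2 and 10.8 CPM in control mice on the control diet and 17.9 and 10.8 CPM on the TJ-41 diet. In the model it had 1.36 and 2.31 CPM on the control diet and 2.09 and 1.74 CPM on the TJ-41 diet. The arms were separate, and replicate 1 of TJ-41-fed control mice was the highest library by a wide margin. The model libraries rest on 26 to 45 counts. The log2FCs were -2.51 (SE 0.35) on the control diet and -2.90 (0.36) on the TJ-41 diet.

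Clock encodes the usual partner of BMAL1. It had 121 and 159 CPM in control mice on the control diet and 164 and 197 CPM on the TJ-41 diet. In the model it had 98.4 and 61.2 CPM on the control diet and 94.1 and 88.8 CPM on the TJ-41 diet. The arms did not overlap, but the gap between them, from 98.4 to 121 CPM, was narrower than the distance between the 2 control diet libraries of either arm. The log2FC of Clock was -0.81 (SE 0.24) on the control diet and -0.98 (0.24) on the TJ-41 diet.

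Nr1d1, the gene of REV-ERBα, had 96.7 and 140.2 CPM in control mice on the control diet and 81.1 and 78.6 CPM on the TJ-41 diet. In the model it had 239 and 202 CPM on the control diet and 318 and 276 CPM on the TJ-41 diet. All libraries of the model were higher than all of control mice, and the distance between the arms was wider on the TJ-41 diet. The log2FC was 0.90 (SE 0.21) on the control diet and 1.89 (0.21) on the TJ-41 diet. Thra, which overlaps the end of Nr1d1, had overlapping libraries in both arms, with 94.1 to 110.5 CPM in control mice and 83.4 to 108 CPM in the model, and a log2FC averaged over the diets of -0.16 (SE 0.12).

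Nr1d2, the gene of REV-ERBβ, had 92.0 and 109.8 CPM in control mice on the control diet and 70.8 and 104 CPM on the TJ-41 diet. In the model it had 306 and 247 CPM on the control diet and 256 and 257 CPM on the TJ-41 diet. The lowest library of the model was above the highest of control mice, and the TJ-41 libraries of the model lay within the range of the control diet libraries. The log2FCs were 1.45 (SE 0.22) and 1.55 (0.22) on the control and TJ-41 diets.

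Rora, the activating counterpart of the REV-ERB genes, had 67.2 and 78.0 CPM in control mice on the control diet and 77.6 and 104 CPM on the TJ-41 diet. In the model it had 87.0 and 76.8 CPM on the control diet and 82.1 and 83.8 CPM on the TJ-41 diet. Libraries of both arms overlapped, and the 4 libraries of the model lay closer together than those of control mice. Its log2FCs were 0.17 (SE 0.18, 95% interval -0.24 to 0.59) on the control diet and -0.13 (0.18, interval -0.55 to 0.28) on the TJ-41 diet. Averaged over the diets the interval ran from -0.27 to 0.32, which bounds the difference without showing that there was none. Rora is also known as a factor of innate lymphoid and T cells, whose 6 summed markers overlapped between the arms, with 80.9 to 95.7 CPM in control mice and 92.4 to 119 CPM in the model. Of these markers, 2 of 6, Cd3g and Gata3, were higher in every library of the model, and their part in the Rora values was not tested.

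**Figure D2:**
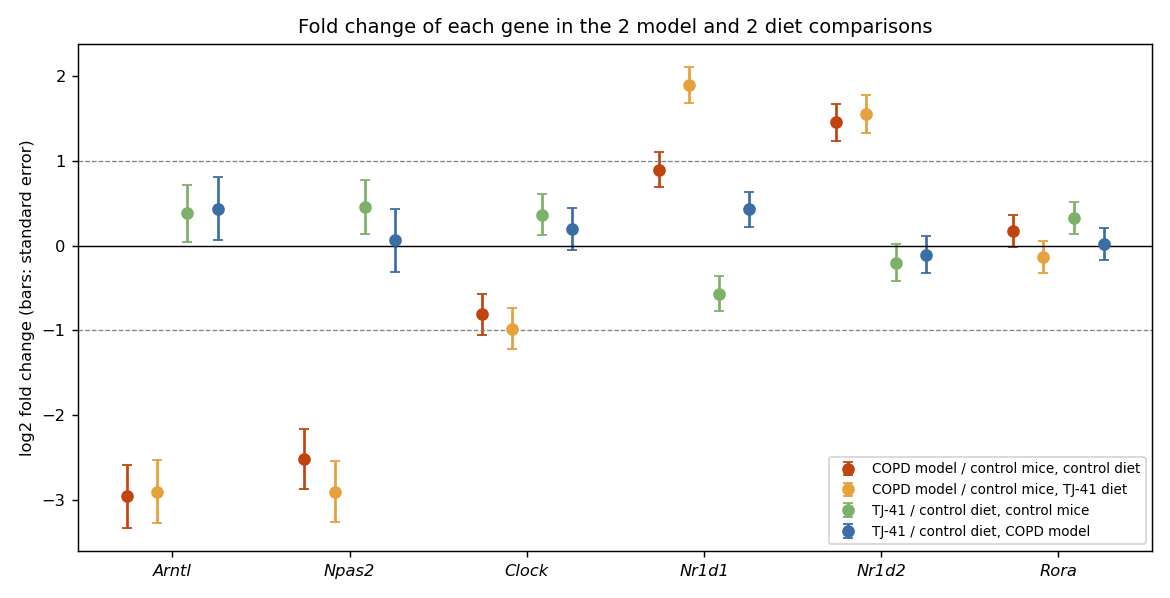
Log2 fold change (log2FC) of each gene on the vertical axis, with SEs as bars, in the comparisons of the COPD model with control mice on each diet and of the TJ-41 diet with the control diet in each arm. Dashed lines mark a log2FC of 1 in either direction, and every diet point lies between them, whereas Arntl and Npas2 lie below -2 in both comparisons of the model.

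A gene was called at a false discovery rate under 0.05 over all genes tested (the quasi-likelihood test of edgeR, Benjamini-Hochberg adjusted) and a log2FC beyond 1. On the control diet, Arntl and Npas2 were called lower in the model, where 0.0195% of all genes were called lower and 0.102% higher. On the TJ-41 diet the genes called were Arntl and Npas2, lower, where 0.0195% of all genes were called, and Nr1d1, higher, where 0.0584% were called. Averaged over the diets, Arntl (log2FC -2.93, SE 0.26) and Npas2 (-2.71, 0.25) were called lower, where 0.102% of all genes were. Nr1d1 (1.40, 0.15) and Nr1d2 (1.50, 0.16) were called higher, where 0.341% of all genes were. Clock (-0.89, 0.17) and Rora (0.020, 0.13) were not called. Nr1d2 was not called on either diet alone. It was called higher on both by DESeq2, by the exact test of edgeR and when all genes with a count were kept. In that order, these alternatives called 171, 210 and 147 genes in total on the control diet, beside 25 with the filter and test above. On the TJ-41 diet they called 125, 137 and 89 genes in total, beside 16. The calls of the chosen genes describe genes chosen on this contrast and support nothing further.

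The calls depended on single libraries. Where a library was left out, its group kept 1 library, which was assumed to vary like those of the other groups. On the control diet, 0 of the 6 genes were called when any one of the 4 libraries of control mice was left out, and 0 when only the compared groups were fitted. Arntl alone was called without either library of the model on the TJ-41 diet. Without either library of the model on the control diet, more genes were called than with all 8 libraries, both of the 6 and of all genes tested. The log2FCs without replicate 1 were -3.82 for Arntl, -2.19 for Npas2, -1.20 for Clock and 1.29 for Nr1d2. Without replicate 2 they were -2.42, -2.94, -0.51 and 1.60. On the TJ-41 diet, Nr1d1 alone was called without either control diet library of control mice or without replicate 2 of the model on the TJ-41 diet, and 0 genes were called without either TJ-41 library of control mice or without replicate 1 of the model on that diet. Without either control diet library of the model, more genes were called there, both of the 6 and of all genes tested. The log2FC of Nr1d2 on the TJ-41 diet was then 1.56, beside 1.55 with all 8 libraries. In the average over the diets, the calls of Nr1d1, Nr1d2 and Clock changed with the library left out. Their log2FCs then ranged from 1.28 to 1.55, from 1.38 to 1.65 and from -1.09 to -0.74. The direction of Arntl, Npas2, Clock, Nr1d1 and Nr1d2 was the same in every alternative run for these 3 comparisons, and Arntl ranged from -3.82 to -2.42 on the control diet and from -3.03 to -2.78 on the TJ-41 diet.

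Levels can be compared between the genes per kilobase of exon. In control mice the order from the lowest was Npas2 at a median of 2.25 CPM per kb, Rora at 5.95, Arntl at 6.33, Clock at 11.8, Nr1d2 at 18.2 and Nr1d1 at 28.9. The neighbours Rora (5.14 to 7.99 CPM per kb) and Arntl (4.89 to 7.27) overlapped in their libraries, as did Clock (8.80 to 14.3) and Nr1d2 (13.1 to 20.3). In the model the order was Npas2 at 0.399, Arntl at 0.931, Rora at 6.35, Clock at 6.66, Nr1d2 at 47.4 and Nr1d1 at 83.6. Npas2 (0.283 to 0.482 CPM per kb) and Arntl (0.382 to 1.02) overlapped there, as did Rora (5.88 to 6.66) and Clock (4.46 to 7.17). Arntl thus stood beside Rora in control mice and beside Npas2 in the model.

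Ratios within a library, from these levels per kilobase, set the genes of the loop against each other. Npas2 made up 13.5% to 23.9% of the sum of Clock and Npas2 in control mice, with a median of 17.9%, and 3.796% to 9.75% in the model, with a median of 5.64%. The ratio of Arntl to that sum was 0.353 to 0.539 in control mice and 0.0773 to 0.140 in the model. The arms were separate in both ratios, and Arntl was lower relative to its partners in every library of the model. The sum of Nr1d1 and Nr1d2 over Rora was 5.61 to 11.03 in control mice and 18.96 to 24.0 in the model. The sum of the REV-ERB genes over Arntl, their target, was 5.42 to 13.5 in control mice and 133 to 292 in the model. By contrast, the share of Nr1d1 in the REV-ERB sum overlapped between the arms, with 56.9% to 69.2% in control mice and 57.8% to 68.5% in the model. These ratios follow from the fold changes above and add no independent evidence, and they compare transcripts and not proteins.

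**Figure D3:**
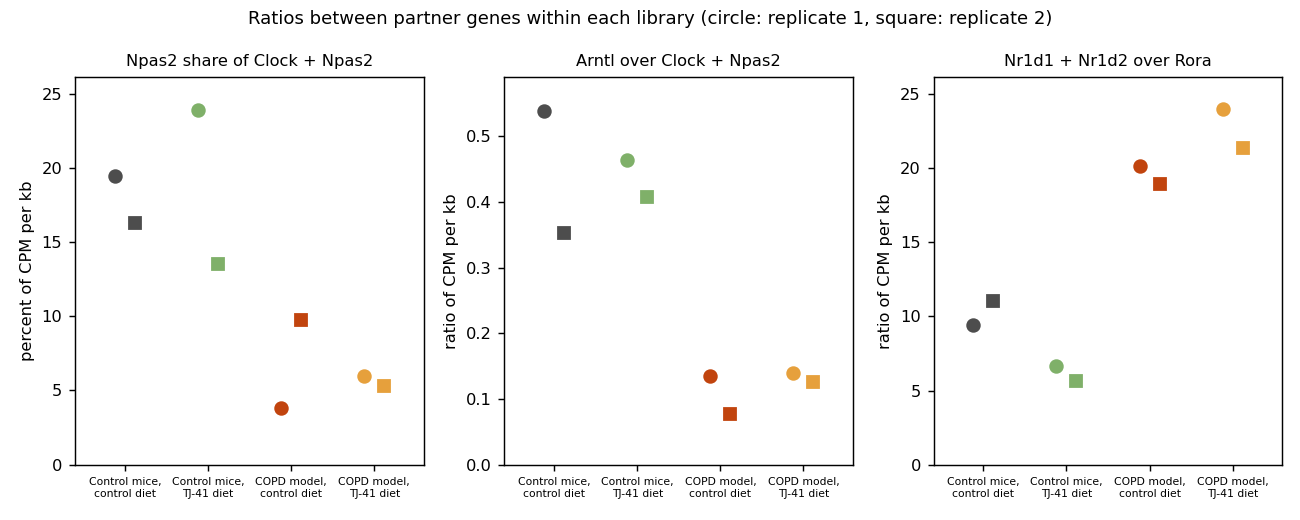
Ratios between partner genes in each of the 8 libraries, by group on the horizontal axes, as the percent of Npas2 in the sum of Clock and Npas2, Arntl over that sum, and the sum of Nr1d1 and Nr1d2 over Rora (vertical axes from 0, levels in CPM per kilobase of exon, circle for replicate 1 and square for replicate 2). The first ratios were at most 9.75% and 0.140 in every library of the COPD model, and the third was at least 18.96 there and at most 11.03 in control mice.

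The TJ-41 diet was compared with the control diet in control mice first. None of the 6 genes was called by the quasi-likelihood test of edgeR, where 0% of all genes were called. Unadjusted, 336 genes had p under 0.05, with Nr1d1 as the 1 among the 6. DESeq2 called 10 genes and the exact test of edgeR 6 of all genes, and none of these were among the 6. The log2FCs were 0.38 (SE 0.34) for Arntl, 0.45 (0.32) for Npas2, 0.36 (0.24) for Clock, -0.20 (0.22) for Nr1d2 and 0.32 (0.18) for Rora. Nr1d1 had a log2FC of -0.57 (SE 0.21, 95% interval -1.04 to -0.10), and all 6 genes had an adjusted p = 0.996 (the quasi-likelihood test of edgeR, Benjamini-Hochberg adjusted). The intervals allow a difference of 1.14 for Arntl, 1.17 for Npas2 and 0.91 for Clock on the log2 scale. The libraries of the diets did not overlap for Arntl and Clock, both higher on the TJ-41 diet, where 19.1% of all genes were higher without overlap, and for Nr1d1, lower, where 19.1% of all genes were lower without overlap.

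Within the model, none of the 6 genes was called either by the quasi-likelihood test of edgeR, where 0.00487% of all genes were, which is 1 gene, and 842 genes had an unadjusted p under 0.05, with 0 of the 6 among them. DESeq2 called 12 genes and the exact test of edgeR 6, and none of these were among the 6. Nr1d1 had a log2FC of 0.43 (SE 0.21, interval -0.035 to 0.89) and Arntl one of 0.44 (0.37, interval -0.40 to 1.27), each with an adjusted p = 0.991 from the same edgeR test. The other 4 genes had log2FCs of 0.061 (Npas2), 0.20 (Clock), -0.11 (Nr1d2) and 0.018 (Rora), with adjusted p = 0.991 to 0.999 from that test. Nr1d1 was the one gene whose diet libraries did not overlap, higher on the TJ-41 diet, where 14.1% of all genes were higher and 14.9% lower without overlap. The value of Arntl turned on the model libraries from mice fed the control diet. Leaving out replicate 1 of these, Arntl was called, with a log2FC of 1.30 and an adjusted p = 0.0176 from the quasi-likelihood test of edgeR. The group then held replicate 2 alone, at 2.87 CPM, and its spread was taken from the other groups. The adjusted p of Arntl was 0.0176 to 1.00 over the alternatives of that edgeR model, and without replicate 2 its log2FC was -0.10. The same omission of replicate 1 raised the calls over all genes from 1 to 728.

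Averaged over both arms, none of the 6 genes was called for the TJ-41 diet by the quasi-likelihood test of edgeR, where 0% of all genes were called, 509 had an unadjusted p under 0.05 and DESeq2 called 5. None of these were among the 6. Arntl had the widest interval, with a log2FC of 0.41 (SE 0.25, interval -0.15 to 0.97) and an adjusted p = 0.973 from the quasi-likelihood test of edgeR. Without replicate 1 of the model on the control diet the averaged values were 0.83 for Arntl and 0.47 for Clock, both under the fold threshold, with an adjusted p = 0.0184 and 0.0494 from edgeR.

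The difference between the diet effects, the model minus control mice, was tested as an interaction. Nr1d1 had the largest difference of the 6, at 1.00 on the log2 scale (SE 0.29, interval 0.34 to 1.66), since its diet values were -0.57 in control mice and 0.43 in the model. It did not pass the adjustment over all genes (adjusted p = 0.999 from the quasi-likelihood test of edgeR, 0.136 to 1.00 over the alternatives). The other 5 differences lay between -0.39 for Npas2 and 0.096 for Nr1d2, each with an adjusted p = 0.999 from that test. For the interaction 0% of all genes were called, with 672 at an unadjusted p under 0.05, Nr1d1 being the 1 among the 6. DESeq2 called 17 genes, none of them among the 6. The interaction is the same quantity as the difference between the comparisons of the model on the 2 diets, so the wider distance of Nr1d1 between the arms on the TJ-41 diet is this value and not a further result.

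How alike the genes were across the 8 libraries was described by the root mean square difference of their log2 CPM, each gene centred on its own mean. Nr1d1 and Nr1d2 lay 0.29 apart and Arntl and Npas2 0.61 apart, whereas Arntl and Nr1d1 lay 2.26 apart. Clock was nearer to Rora, at 0.49, than to Arntl, at 1.09. Among 20540 other genes, the nearest to Nr1d1 were Tef (0.27), a D-box factor, Bhlhe40 (0.31), a repressor that binds E-boxes, and Rasd2 (0.31). The nearest to Nr1d2 were Tex11 (0.17), Ccr8 (0.19, with 5 to 20 counts a library) and Tef (0.19). The nearest to Arntl were Fam124b (0.44), Spon2 (0.51) and Htr2c (0.54, with 3 to 47 counts). The nearest to Npas2 were Ccnjl (0.41), Spon2 (0.55) and Adamts17 (0.57). The 8 points fall in the arms of the study, so that any gene with a like difference between the arms is near, and scaling by library size alone named the same 3 genes for each.

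Around these 6 genes, 41 other clock genes from lists by role were examined, 40 of which passed the filter on low counts. In the average over the diets, 7 of the 40 were called higher, where 0.341% of all genes were, and 1 was called lower, where 0.102% were. All 8 of these genes are repressors or E-box output factors. Their libraries did not overlap between the arms. Of the 41 genes, 13 were higher and 1 was lower in every library of the model, where 3.35% and 3.43% of all genes were.

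The output factors Dbp, Tef and Hlf bind D-boxes and are activated by the Arntl partners. Dbp had the largest log2FC of all these genes, with 8.76 to 21.3 CPM in control mice and 185 to 200.3 CPM in the model, a log2FC of 3.89 (SE 0.14). Tef had 126 to 170.4 CPM in control mice and 439 to 490.2 CPM in the model (log2FC 1.71). Hlf had 18.6 to 20.2 CPM in control mice and 74.3 to 91.7 CPM in the model (2.03). All 3 were called on each diet.

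Among the repressors, Per2 (log2FC 1.90) and Per3 (2.03) of the period family, which inhibit the Arntl partners, and Bhlhe40 (1.25) and Bhlhe41 (2.27), which bind E-boxes, were called higher in the average. Per3 and Bhlhe41 were called on each diet and Per2 on the control diet. Nfil3, which represses from D-boxes, was called lower in the average, at -1.35 (SE 0.16), with 14.96 to 17.6 CPM in control mice and 5.43 to 8.15 CPM in the model. Per1, Cry1, Cry2 and Ciart were not called, with log2FCs of 1.21, 0.40, 0.64 and 0.98. The median of the 9 repressors was 1.21 and that of the 3 output factors was 2.03, beside -0.0017 for all genes tested. These lists were chosen with results of these data known.

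The partners of the receptors gave other values. By the quasi-likelihood test of edgeR, 0 of the 6 genes of the REV-ERB corepressor complex, which includes Ncor1 and Hdac3, were called in any comparison, nor were any by DESeq2, and 0 had an unadjusted p under 0.05 in the comparisons of the arms. All overlapped between the arms, with a median of 0.033 in the average over the diets. The 6 ROR coactivators had a median of -0.072 and the 14 post-translational regulators of the clock one of -0.0033, with 0 called by the quasi-likelihood test of edgeR in any comparison. On both lists, Usp2 alone had an unadjusted p under 0.05, in the comparisons of the arms, and DESeq2 called it on the control diet. Of the paralogs, Arntl2 had a log2FC of 0.34 (SE 0.21) and was not called, and Rorb had too few counts to be tested. Between the diets, 0 of the 40 genes were called by the quasi-likelihood test of edgeR in either arm, and 1 had an unadjusted p under 0.05 in each, which in control mice was Dbp. Dbp, named after its values were seen, had 15.6 and 21.3 CPM in control mice fed the control diet and 8.76 and 9.51 CPM in those fed TJ-41. Its log2FC was -1.01 (SE 0.19, adjusted p = 0.996 from the quasi-likelihood test of edgeR), and DESeq2 and the exact test of edgeR both called it lower there.

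**Figure D4:**
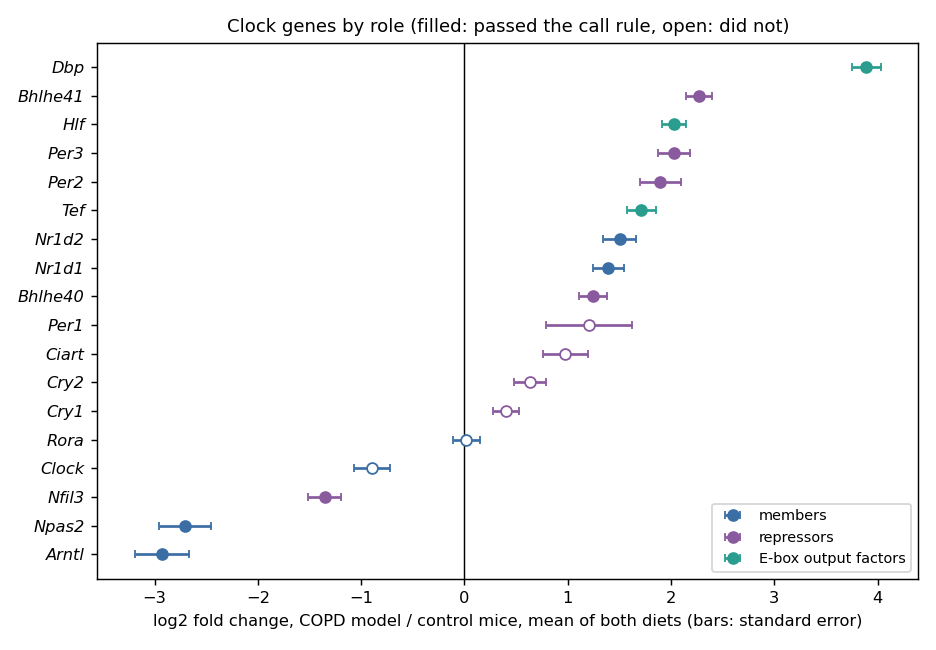
Log2FC between the COPD model and control mice, averaged over both diets, on the horizontal axis with SEs as bars, for the 6 genes and for the repressors and E-box output factors, ordered by value. Filled points passed the threshold for a call and open points did not, and Arntl and Npas2 at -2.93 and -2.71 stand at the low end with Nfil3 at -1.35, while Dbp at 3.89 stands at the high end.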

How the data were processed

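The authors deposited whole-number read counts of 52636 Ensembl genes for each library, without normalization. The submitters' processing notes name HISAT2, edgeR and mm10, and the study's methods name CLC Genomics Workbench. The counting program, annotation, strand setting and handling of multimapping reads are not given in the sources used here. Groups and replicate numbers came from the labels. GENCODE M21 held 52489 of the identifiers and gave names, coordinates and exon lengths.

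Low counts were filtered with filterByExpr in edgeR 4.0.16 (R 4.3.3; minimum count 10, minimum total 15). Libraries were scaled by TMM (factors 0.935 to 1.02), and genes were tested by quasi-likelihood in 1 fit of all 4 groups with 4 residual degrees of freedom. P-values were Benjamini-Hochberg adjusted over 20546 genes. Calls needed an adjusted p under 0.05 with a log2 fold change over 1 or under -1, as the thresholds of the study were read. Intervals are 95%. With 2 libraries in each group, an exact permutation test cannot give a two-sided p under 0.333. Replicates differed by 11.5 to 84.6 times the counting variance, so no library was a copy of another.

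The members and gene lists were chosen with earlier results of these data known. The genes named were the members, the called genes of the clock lists and the 3 genes nearest to each of Arntl, Npas2, Nr1d1 and Nr1d2 (prior count 0.5). Other genes named were picked after their values were seen. Alternatives were DESeq2 1.42.0, the exact test of edgeR, other scaling and filters, a replicate block, only the compared groups, the false discovery rate alone, and each library left out. The steps were tested on simulated data. A planned comparison of the proteins was not analysed here. Some results are not reported here.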

Additional observations from a re-analysis of the deposited data

Results flagged for a closer look

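Nr1d1 differed between the diets in opposite directions in the arms of the study, with no overlap between the diets in either. It was lower on the TJ-41 diet in both libraries of control mice (81.1 and 78.6 CPM, against 96.7 and 140.2 CPM on the control diet) and higher in both libraries of the COPD model (318 and 276 CPM, against 239 and 202 CPM). The difference between the diet effects, the model minus control mice, was 1.00 on the log2 scale (standard error 0.29), and its adjusted p = 0.999 from the quasi-likelihood test of edgeR (Benjamini-Hochberg adjusted) did not pass. With 2 libraries in each group, 19.1% of all genes were lower without overlap in control mice and 14.1% were higher without overlap in the model. Among the 40 other clock genes tested, this difference was 1.07 (standard error 0.26) for Dbp and -0.66 (0.26) for Cry1, and neither was called. It was above 0 for 14 of the 40 and below 0 for 26.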

How the results depend on the processing

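The number of the 6 genes called was 2 for the COPD model fed the control diet. It was 1 with a mean of at least 1 CPM, 1 with a replicate block (Arntl, with Npas2 lost) and 0 with only the compared groups fitted, and ranged from 0 to 4 when each library was left out. On the TJ-41 diet it was 3, was 2 with a replicate block (Arntl and Nr1d1, with Npas2 lost), and ranged from 0 to 4 when each library was left out. For the TJ-41 diet in the COPD model it was 0, and ranged from 0 to 1. DESeq2, the exact test, the false discovery rate alone, relative log expression factors and library size alone changed none of these counts by over 1.5 times, although DESeq2 and the exact test added Nr1d2 on each diet. Signs turned only when a library was left out. These ranges were -0.32 to 0.095 for Rora in the model on the TJ-41 diet, -0.078 to 0.13 for Rora averaged over the diets, -0.51 to 0.039 for Nr1d2 for the diets in control mice, and -0.19 to 0.077 for Nr1d1 in the averaged diet effect. For the TJ-41 diet in the model they were -0.10 to 1.30 for Arntl, -0.27 to 0.49 for Npas2, -0.11 to 0.58 for Clock, -0.26 to 0.058 for Nr1d2 and -0.070 to 0.11 for Rora. For the difference between the diet effects they were -0.47 to 0.93 for Arntl, -0.71 to 0.049 for Npas2, -0.46 to 0.22 for Clock and -0.14 to 0.41 for Nr1d2. The cause was not tested. The calls over all genes ranged from 3 to 1343 for the model on the control diet, where 25 were reported, from 2 to 248 on the TJ-41 diet (16), and from 15 to 873 averaged over the diets (91). They ranged from 0 to 10 (0) and from 0 to 728 (1) for the TJ-41 diet in control mice and in the model, from 0 to 228 (0) for the averaged diet effect and from 0 to 17 (0) for the difference between the diet effects. No label pairs the libraries by replicate number, and the replicate block is an alternative only. Replicate differences correlated at -0.234 to 0.108 between groups over all genes, which does not test a shared cage or day for single genes. Depth limits Npas2 most, with 26 to 45 counts in the model.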

Other observations

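Some of the 41 other clock genes that the quasi-likelihood test of edgeR did not call between the arms also had separate libraries in the COPD model and control mice, and those given here were named after their values were seen. The repressor genes Cry1 and Cry2 had 12.7 to 16.8 CPM and 43.3 to 69.7 CPM in control mice, and 17.4 to 23.5 CPM and 83.9 to 92.9 CPM in the model. Per1, which also responds to glucocorticoids, had 21.5 to 84.0 CPM in control mice and 97.5 to 219 CPM in the model, a wide spread in both arms. Ciart had 7.79 to 14.4 CPM and 18.99 to 28.8 CPM. Usp2, a deubiquitinase, had 8.96 to 10.97 CPM in control mice and 13.5 to 24.2 CPM in the model.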
